A study of Mus musculus with 10 samples.

Results

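The 10 genes described here, Cdkn1a, Mdm2, Ccng1, Trp53inp1, Bax, Bbc3, Phlda3, Sesn2, Zmat3 and Eda2r, are known transcriptional targets of p53. They were chosen by symbol and matched to the Ensembl IDs of the deposited count table, and all 10 were found among its 22731 genes. All 10 passed the filter on low counts, as did 16344 genes in all. RNA was sequenced in bulk from mouse fibroblasts in 3 groups: 3 libraries of fibroblasts cocultured with IL13KO ILC2s, 3 libraries of fibroblasts cocultured with WT ILC2s, and 4 libraries of fibroblasts in monoculture. ILC2s are group 2 innate lymphoid cells, and IL13KO ILC2s are those that the labels give as lacking IL-13, one of the cytokines these cells secrete. The fibroblasts carried the same genotype, C57B6, in every group, so only the ILC2s differed in genotype. Fibroblasts had been sorted by Pdpn and Pdgfra after cells bearing CD45, Epcam or CD31 were gated out, ILC2s as KLRG1+ lymphoid cells, and fibroblasts were sorted again after coculture, by a gate that the design text writes as CD45+. By its title the series concerns the pancreas and Pi16+ progenitor fibroblasts. Age, sex, culture time and the number of mice were not given in the sources used here. No label ties a library to a mouse or a culture, so p-values measure the spread between libraries, which may be technical.

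The p53 protein, encoded by Trp53, is a transcription factor that stressed cells stabilise and that binds DNA elements near its target genes. Its targets stop the cell cycle, repair damage, alter metabolism or start cell death, and one of them, Mdm2, encodes the ubiquitin ligase that degrades p53 and so closes a feedback loop. Several of these genes also answer to other factors, Cdkn1a to growth signals and Sesn2 and Bbc3 to nutrient and endoplasmic reticulum stress, and in fibroblasts the p21 protein made from Cdkn1a is best known for holding cells out of the cycle.

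The stretch upstream of the transcription start is shown for 3 members because these 3 differ both in the letters of the p53 element and in the values below. Promoter windows from RefSeq, build GRCm38.p6, covered 250 bases before and 50 bases after the start and were held for 8 of the 10 members, in 11 windows. The others were Trp53inp1 and Zmat3. The p53 response element was searched by its name, as the standard half-site of 10 bases and as a pair of adjoining half-sites of 20 bases, on both strands, which for this palindromic motif are the same letters. Capitals mark the 20-base element with at most 1 position off the standard one. The upstream 250 bases lie at chr17:29090729-29090978 on the plus strand for Cdkn1a, at chr11:40755287-40755536 on the minus strand for Ccng1, and at chr4:132510457-132510706 on the minus strand for Sesn2.
Cdkn1a: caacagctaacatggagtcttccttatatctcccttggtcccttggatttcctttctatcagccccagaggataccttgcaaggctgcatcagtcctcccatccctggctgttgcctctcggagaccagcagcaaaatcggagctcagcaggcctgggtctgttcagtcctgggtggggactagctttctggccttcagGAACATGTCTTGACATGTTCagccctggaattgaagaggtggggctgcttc
Ccng1: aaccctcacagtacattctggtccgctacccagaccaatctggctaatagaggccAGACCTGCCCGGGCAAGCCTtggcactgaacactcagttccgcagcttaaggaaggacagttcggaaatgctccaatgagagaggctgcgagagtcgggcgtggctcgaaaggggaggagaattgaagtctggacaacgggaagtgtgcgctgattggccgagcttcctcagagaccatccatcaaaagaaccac
Sesn2: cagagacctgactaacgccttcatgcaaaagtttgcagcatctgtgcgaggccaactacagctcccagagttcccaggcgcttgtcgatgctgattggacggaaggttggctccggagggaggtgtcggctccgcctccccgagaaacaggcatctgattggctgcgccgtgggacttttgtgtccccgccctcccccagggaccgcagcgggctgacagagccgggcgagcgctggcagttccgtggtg
Cdkn1a had the near-complete element at -51 from the start in the window shown, and Ccng1 had it at -195. A second Cdkn1a window, at chr17:29093519-29093818 for another start, held neither the element nor a half-site. The Sesn2 window also held neither. Such an element stood in the windows of 2 of 8 members and of 22 of 27025 genes with a window, or 0.0814% of them. An exact half-site stood in 4 of 8 members, the others being Mdm2 (GAACTTGCCT, -186) and Bax (AGGCAAGCTT, -201), against 9.55% of all genes with a window. No member held the full element with every position matched, which 0.0111% of genes did. A match is a description of letters, not a binding site or a cause, and no match says only that these letters are not in this window.

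Library totals were 17277432 to 17661229 reads in IL13KO cocultures, 18801744 to 22087459 in WT cocultures and 10710410 to 14366199 in monocultures. Il13, which the label says the IL13KO ILC2s lack, had 0 reads in each IL13KO coculture library, 30, 120 and 121 in the WT coculture libraries and 0 in each monoculture. Of 7 fibroblast-defining markers all were measured, and their summed level was 21600 to 26860 CPM (TMM-scaled counts relative to library size) in IL13KO cocultures, 11130 to 15570 in WT cocultures and 6848 to 9607 in monocultures. The collagen genes Col1a1 and Col3a1 carried most of that sum in the cocultures, and the markers did not move together: Dcn, which encodes decorin, averaged 1650 ± 238 CPM in IL13KO cocultures, 369 ± 64.9 in WT cocultures and 2532 ± 681 in monocultures. Thy1 averaged 255 ± 20.7 CPM in IL13KO cocultures, 371 ± 13.4 in WT cocultures and 136 ± 28.4 in monocultures. Leukocyte markers, 8 in all, summed to 29.4 to 35.1 CPM in IL13KO cocultures, 108 to 139 in WT cocultures and 11.6 to 16.9 in monocultures; the CD45 gene Ptprc had 0, 1 and 0 reads in IL13KO cocultures, 6, 3 and 9 in WT cocultures and 0 in each monoculture. Of the 4 leukocyte markers tested, 0 were higher and 1 lower in IL13KO than in WT cocultures, 2 were higher in WT cocultures than in monocultures and 1 was higher in IL13KO cocultures than in monocultures. Cd53 alone averaged 16.4 ± 3.32 CPM in IL13KO cocultures, 104 ± 10.04 in WT cocultures and 3.13 ± 0.76 in monocultures. ILC2 markers, 12 in the table, summed to 79.3 to 86.2 CPM in IL13KO cocultures, 1295 to 1548 in WT cocultures and 67.5 to 84.4 in monocultures. Il1rl1, which encodes the IL-33 receptor, made up most of the sum in WT cocultures, at 16.1 ± 3.25 CPM in IL13KO cocultures, 1299 ± 133 in WT cocultures and 6.89 ± 1.5 in monocultures. Rora ran the other way, at 55.3 ± 3.08 CPM in IL13KO cocultures, 41.7 ± 5.44 in WT cocultures and 63.7 ± 5.16 in monocultures. Mural and stellate markers, 7 in all, summed to 326 to 337 CPM in IL13KO cocultures, 73.3 to 126 in WT cocultures and 120 to 153 in monocultures. Pdgfrb made up most of the sum in IL13KO cocultures, at 224.5 ± 20.15 CPM, beside 69.2 ± 28 in WT cocultures and 52.9 ± 15.1 in monocultures. Rgs5 had another pattern, at 57.7 ± 10.6 CPM in IL13KO cocultures, 8.54 ± 1.63 in WT cocultures and 51.35 ± 12.3 in monocultures. The part of these marker levels in the results below was not tested.

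Measured per kilobase of exon, so that genes can be compared, the members spanned a wide range and kept a similar order at the top. Phlda3 was highest with 148 ± 8.02 CPM per kb in IL13KO cocultures, 120 ± 3.76 in WT cocultures and 166 ± 25.4 in monocultures (SD, n = 3, 3 and 4). Bax, Ccng1 and Cdkn1a followed in that order in all 3 groups, with Cdkn1a at 24.8 CPM per kb in IL13KO cocultures, 32.3 in WT cocultures and 58.5 in monocultures. The ranges of Phlda3 and Bax overlapped in WT cocultures, and the other neighbours among these 4 genes did not overlap in any group. Sesn2 stood at 18.9 CPM per kb in IL13KO cocultures and 18.1 in WT cocultures, above Mdm2, with ranges that overlapped in WT cocultures, and at 2.6 in monocultures, where its range overlapped those of Eda2r and Zmat3. Bbc3 was the lowest member in monocultures at 0.713 CPM per kb, and Trp53inp1 was the lowest in both cocultures, with 2.43 in IL13KO cocultures, where its range overlapped that of Zmat3, and 1.59 in WT cocultures.

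**Figure D1:**
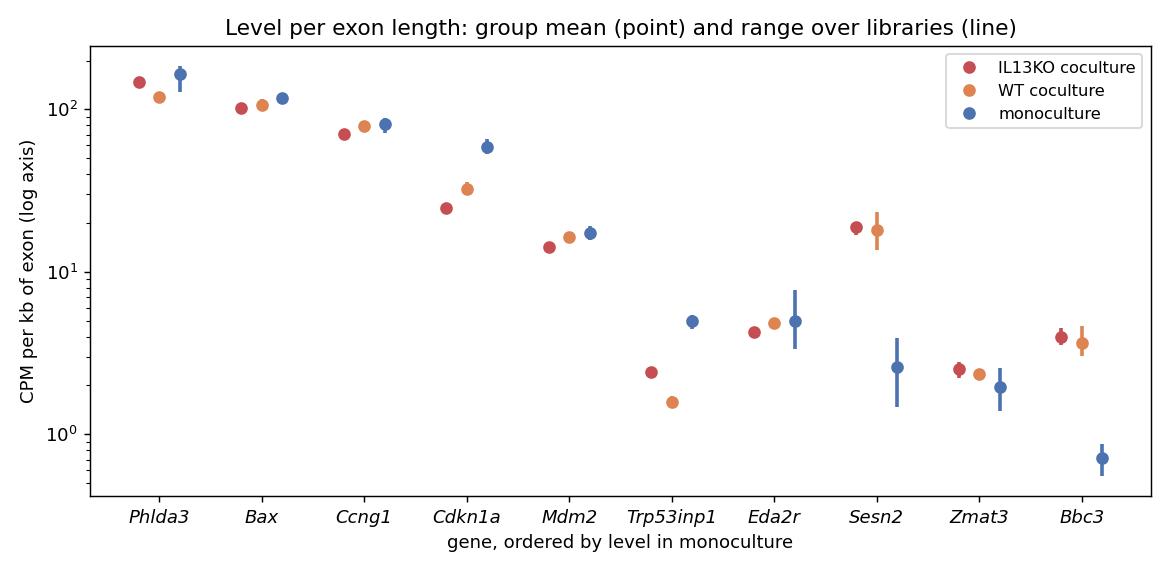
Level per exon length of the 10 p53 target genes in IL13KO cocultures, WT cocultures and monocultures, on a log axis, in CPM per kb of exon; points are group means and lines the range over libraries. Genes run from left to right by their level in monocultures, and Sesn2 and Bbc3 are the 2 genes whose coculture points stand far above their monoculture point.

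Against monocultures the 10 members split in both cocultures: Sesn2 and Bbc3 were several-fold higher, Cdkn1a and Trp53inp1 were lower, and the other 6 members had log2 differences of -0.46 to 0.36. In WT cocultures against monocultures 2 members were called higher (Sesn2, Bbc3) and 3 lower (Cdkn1a, Trp53inp1, Phlda3) at an adjusted p below 0.05 in edgeR's quasi-likelihood test with Benjamini-Hochberg adjustment over all genes tested; the background was 62.5% of genes called, 32.8% higher and 29.7% lower. In IL13KO cocultures against monocultures 2 were higher (Sesn2, Bbc3) and 3 lower (Cdkn1a, Trp53inp1, Mdm2), where 57.4% of genes were called, 30.1% higher and 27.3% lower. The 5 of 10 called in each comparison was near those backgrounds. Leaving out 1 library gave 5 to 6 members called for WT cocultures and 4 to 7 for IL13KO cocultures against monocultures. Both comparisons use the same monocultures and are not independent of each other. In IL13KO against WT cocultures 1 member was higher (Trp53inp1) and 1 lower (Cdkn1a), where 23.3% of genes were called, 11.7% higher and 11.6% lower, so the members' share was near the background. The median log2 difference over the members was -0.005 for IL13KO against WT cocultures, -0.06 for WT cocultures against monocultures and -0.20 for IL13KO cocultures against monocultures, beside 0.004, 0.015 and 0.002 over all genes tested. The groups did not overlap for 6 members, 5 members and 6 members in these 3 comparisons, beside 49.0%, 60.9% and 59.2% of all genes.

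**Figure D2:**
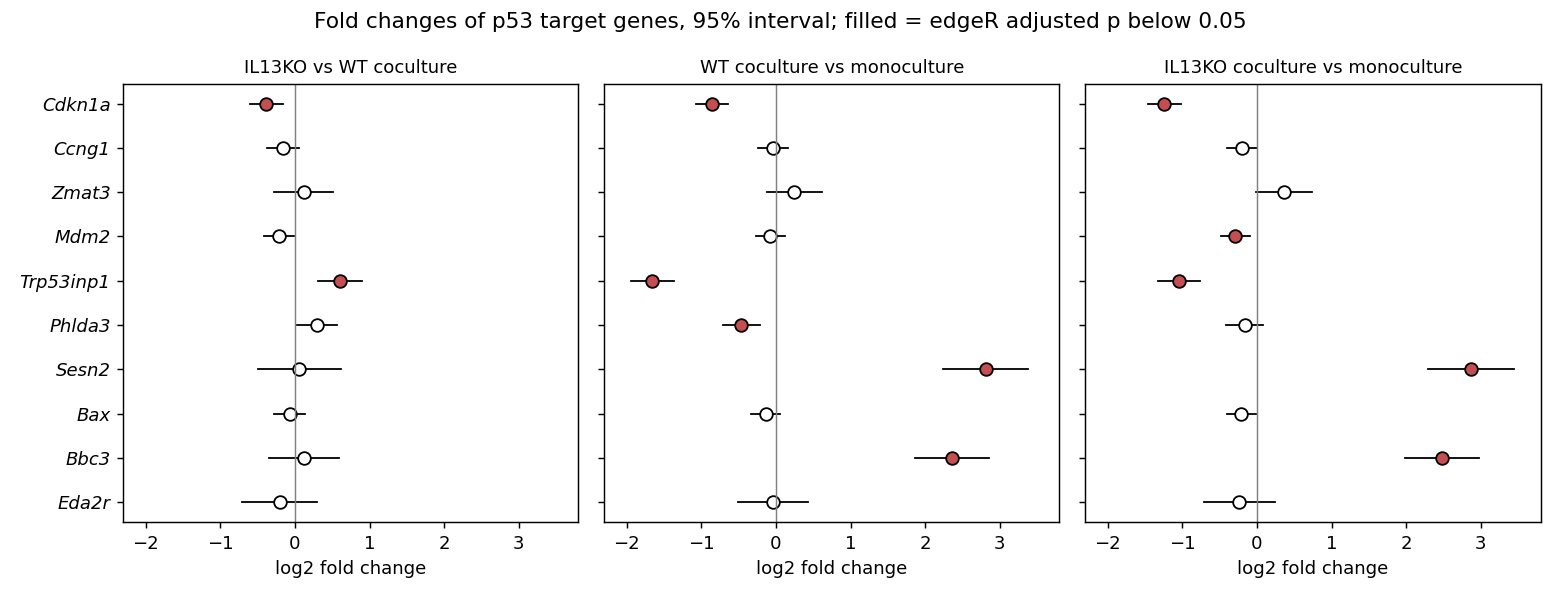
Log2 fold change of each of the 10 p53 target genes in IL13KO against WT cocultures, WT cocultures against monocultures and IL13KO cocultures against monocultures; bars are 95% intervals and filled points have an edgeR adjusted p below 0.05. Sesn2 and Bbc3 lie above 2 in both comparisons with monocultures, and Cdkn1a and Trp53inp1 are the 2 filled points in the comparison of cocultures.

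Of the members that act on the cell cycle, Cdkn1a was lowest in IL13KO cocultures, intermediate in WT cocultures and highest in monocultures. Cdkn1a (ENSMUSG00000023067, chromosome 17, 29090976 to 29100727, plus strand, GRCm38) encodes the cyclin-dependent kinase inhibitor p21. Its level was 87.9, 85.5 and 90.9 CPM in IL13KO cocultures, 106.9, 109.3 and 128.0 CPM in WT cocultures, and 204.2, 188.6, 232.4 and 206.7 CPM in monocultures. No library of one group overlapped another group. Against WT cocultures it was lower in IL13KO cocultures by a log2 difference of -0.38 ± 0.10 (SE; edgeR quasi-likelihood test, adjusted p = 0.0189). Against monocultures the log2 difference was -0.86 ± 0.10 in WT cocultures (adjusted p = 9.16e-06) and -1.24 ± 0.10 in IL13KO cocultures (adjusted p = 1.29e-06). In these bulk samples, fewer cells of a type and less RNA per cell cannot be told apart. The difference between the cocultures lost its call without IL13KO coculture library 1 (adjusted p = 0.0637), IL13KO coculture library 2 (0.0821) or WT coculture library 4 (0.0881), and kept its direction in each. An opposite-strand gene, AC167363.2, covers 7.68% of the Cdkn1a exon bases, and whether counting used strand was not given in the sources used here.

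Ccng1 and Zmat3, the other members that act on growth and RNA, passed no test. Ccng1 (ENSMUSG00000020326, chromosome 11, 40748552 to 40755311, minus strand) encodes cyclin G1, a partner of the PP2A phosphatase that acts on Mdm2. Its level was 237.1, 241.9 and 266.2 CPM in IL13KO cocultures, 280.1, 277.9 and 274.8 CPM in WT cocultures and 252.9, 309.6, 270.0 and 310.3 CPM in monocultures. The IL13KO libraries lay below the WT coculture libraries with no overlap. The monocultures spanned the WT coculture range and overlapped the IL13KO range, where the libraries at 237.1 and 241.9 CPM lay below every monoculture. The log2 differences were -0.16 ± 0.10 for IL13KO against WT cocultures (95% interval -0.38 to 0.05), -0.04 ± 0.09 for WT cocultures and -0.20 ± 0.09 for IL13KO cocultures against monocultures, the last with an adjusted p of 0.0801 in edgeR, or 0.0186 without monoculture library 1 and 0.0111 with upper-quartile scaling. Zmat3 (ENSMUSG00000027663, chromosome 3, 32334792 to 32366014, minus strand) encodes a zinc finger protein that binds RNA and regulates splicing. It had 25.4, 30.0 and 31.8 CPM in IL13KO cocultures, 27.9, 25.9 and 26.4 CPM in WT cocultures and 15.96, 22.1, 29.2 and 23.0 CPM in monocultures, with monoculture library 3 among the coculture values. Without that library the difference from monocultures was called, at 0.39 for WT cocultures (edgeR adjusted p = 0.0423) and 0.51 for IL13KO cocultures (adjusted p = 0.0129), against 0.24 ± 0.17 (0.23) and 0.36 ± 0.17 (0.0857) with all libraries.

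Trp53inp1 had the largest log2 difference of the 10 members between the cocultures and ran against Cdkn1a in that comparison. It (ENSMUSG00000028211, chromosome 4, 11156431 to 11174379, plus strand) encodes a stress-induced protein that promotes p53 phosphorylation and autophagy. Trp53inp1 had 15.99, 15.4 and 15.8 CPM in IL13KO cocultures, 11.2, 9.79 and 9.92 CPM in WT cocultures and 30.7, 35.3, 29.0 and 35.0 CPM in monocultures. The 3 groups did not overlap, with WT cocultures lowest and monocultures highest. It was higher in IL13KO than in WT cocultures by 0.61 ± 0.14 log2 units (edgeR adjusted p = 0.00619), a call that held in all 19 alternative settings, where the adjusted p was 0.000188 to 0.0373. Against monocultures it was lower in both, with a log2 difference of -1.66 ± 0.13 in WT cocultures (adjusted p = 4.16e-07) and -1.04 ± 0.13 in IL13KO cocultures (2.4e-05).

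Mdm2 and Phlda3, which restrain p53 and AKT, were each called in 1 of the 3 comparisons. Mdm2 (ENSMUSG00000020184, chromosome 10, 117688875 to 117710758, minus strand) encodes the ubiquitin ligase of the loop. Its level was 74.1, 70.9 and 72.3 CPM in IL13KO cocultures, 85.4, 84.4 and 82.0 CPM in WT cocultures and 97.6, 87.9, 79.8 and 88.4 CPM in monocultures. Every IL13KO coculture library lay below every library of the other groups. The log2 difference was -0.29 ± 0.09 in IL13KO cocultures against monocultures (edgeR adjusted p = 0.0147), -0.21 ± 0.10 against WT cocultures (adjusted p = 0.127) and -0.08 ± 0.09 in WT cocultures against monocultures (adjusted p = 0.481). The call against monocultures was lost without IL13KO coculture library 2 (0.0682) or 3 (0.0515). Phlda3 (ENSMUSG00000041801, chromosome 1, 135766119 to 135769136, plus strand) encodes a pleckstrin homology domain protein that opposes AKT. It had 239.1, 216.1 and 236.0 CPM in IL13KO cocultures, 189.5, 191.8 and 180.7 CPM in WT cocultures and 200.3, 265.6, 280.0 and 287.0 CPM in monocultures. All IL13KO libraries lay above the WT coculture libraries, and monoculture library 1 lay between those groups while the other 3 monocultures lay above both. Phlda3 was lower in WT cocultures than in monocultures, with a log2 difference of -0.46 ± 0.12 (edgeR adjusted p = 0.00363). The log2 difference between the cocultures was 0.30 ± 0.12 (adjusted p = 0.0985), or 0.0118 without monoculture library 1 and 0.0142 with only the cocultures fitted. The difference of IL13KO cocultures from monocultures was -0.16 ± 0.12 (0.238), or -0.27 without monoculture library 1 (0.00961). After adjustment of each library for its trend over GC content and transcript length (GC adjustment below), Phlda3 was lower than in monocultures in both, at -1.29 in WT cocultures and -1.16 in IL13KO cocultures.

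Sesn2 was higher in both cocultures than in monocultures and overlapped between the cocultures. Sesn2 (ENSMUSG00000028893, chromosome 4, 132492032 to 132510501, minus strand) encodes sestrin 2, a leucine sensor that restrains mTORC1. It had 58.7, 70.9 and 67.6 CPM in IL13KO cocultures, 81.2, 60.6 and 47.3 CPM in WT cocultures and 5.15, 10.4, 13.6 and 6.96 CPM in monocultures. Every monoculture library lay well below every coculture library. Against monocultures the fold was 7.01 in WT cocultures (log2 2.81 ± 0.26, edgeR adjusted p = 1.61e-06) and 7.32 in IL13KO cocultures (log2 2.87 ± 0.26, adjusted p = 3.11e-06). The difference between the cocultures was 0.06 ± 0.26, with a 95% interval of -0.50 to 0.62, and turned to -0.11 without WT coculture library 4. After GC adjustment the log2 difference from monocultures fell to 1.66 in WT cocultures and 1.56 in IL13KO cocultures, both still called.

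Among the members that act in cell death, Bbc3 stood apart from Bax and Eda2r. Bbc3 (ENSMUSG00000002083, chromosome 7, 16308393 to 16318205, plus strand) encodes PUMA, a BH3-only protein that binds the anti-apoptotic BCL-2 proteins. It had 7.54, 8.24 and 9.64 CPM in IL13KO cocultures, 9.87, 7.02 and 6.47 CPM in WT cocultures and 1.18, 1.48, 1.84 and 1.55 CPM in monocultures, where it rested on 14 to 22 reads a library. The cocultures overlapped each other and neither overlapped the monocultures. The fold over monocultures was 5.14 in WT cocultures (log2 2.36 ± 0.23, edgeR adjusted p = 2.16e-06) and 5.59 in IL13KO cocultures (log2 2.48 ± 0.23, 3.26e-06), and became a log2 difference of 1.37 and 1.26 after GC adjustment. Between the cocultures the log2 difference was 0.12 ± 0.22 (95% interval -0.34 to 0.58), or -0.001 without WT coculture library 4.

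Bax (ENSMUSG00000003873, chromosome 7, 45461697 to 45466898, minus strand) encodes a pore-forming BCL-2 family protein of the mitochondrial outer membrane. It had 164.6, 150.1 and 167.0 CPM in IL13KO cocultures, 156.6, 183.1 and 166.5 CPM in WT cocultures and 182.3, 176.4, 200.9 and 182.5 CPM in monocultures. The coculture groups overlapped, and all IL13KO libraries lay below all monocultures. With all libraries, TMM scaling and no GC adjustment no difference passed: -0.07 between the cocultures, -0.14 ± 0.09 for WT cocultures against monocultures (edgeR adjusted p = 0.195) and -0.21 ± 0.09 for IL13KO cocultures against monocultures (adjusted p = 0.0608). The last was called without WT coculture library 3 (adjusted p = 0.0375) or WT cocultures as a group (0.0419), and both comparisons with monocultures were called lower with upper-quartile scaling (-0.26 and -0.31). After GC adjustment Bax was also called lower than in monocultures, at -0.96 in WT cocultures (edgeR adjusted p = 5.4e-06) and -1.17 in IL13KO cocultures (2.61e-06). Gm45808 on the same strand shares 12.2% of its exon bases. Eda2r (ENSMUSG00000034457, chromosome X, 97333840 to 97377216, minus strand) encodes a receptor of the TNF receptor superfamily for ectodysplasin A2. It had 24.3, 25.6 and 25.2 CPM in IL13KO cocultures, 30.8, 27.8 and 27.7 CPM in WT cocultures and 27.3, 25.2, 19.6 and 45.6 CPM in monocultures. Monoculture library 4 was the highest of all 10 libraries and library 3 the lowest. No difference passed the test, and without monoculture library 4 the difference from monocultures turned to 0.25 in WT cocultures and 0.05 in IL13KO cocultures, against -0.04 and -0.24 with it.

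**Figure D3:**
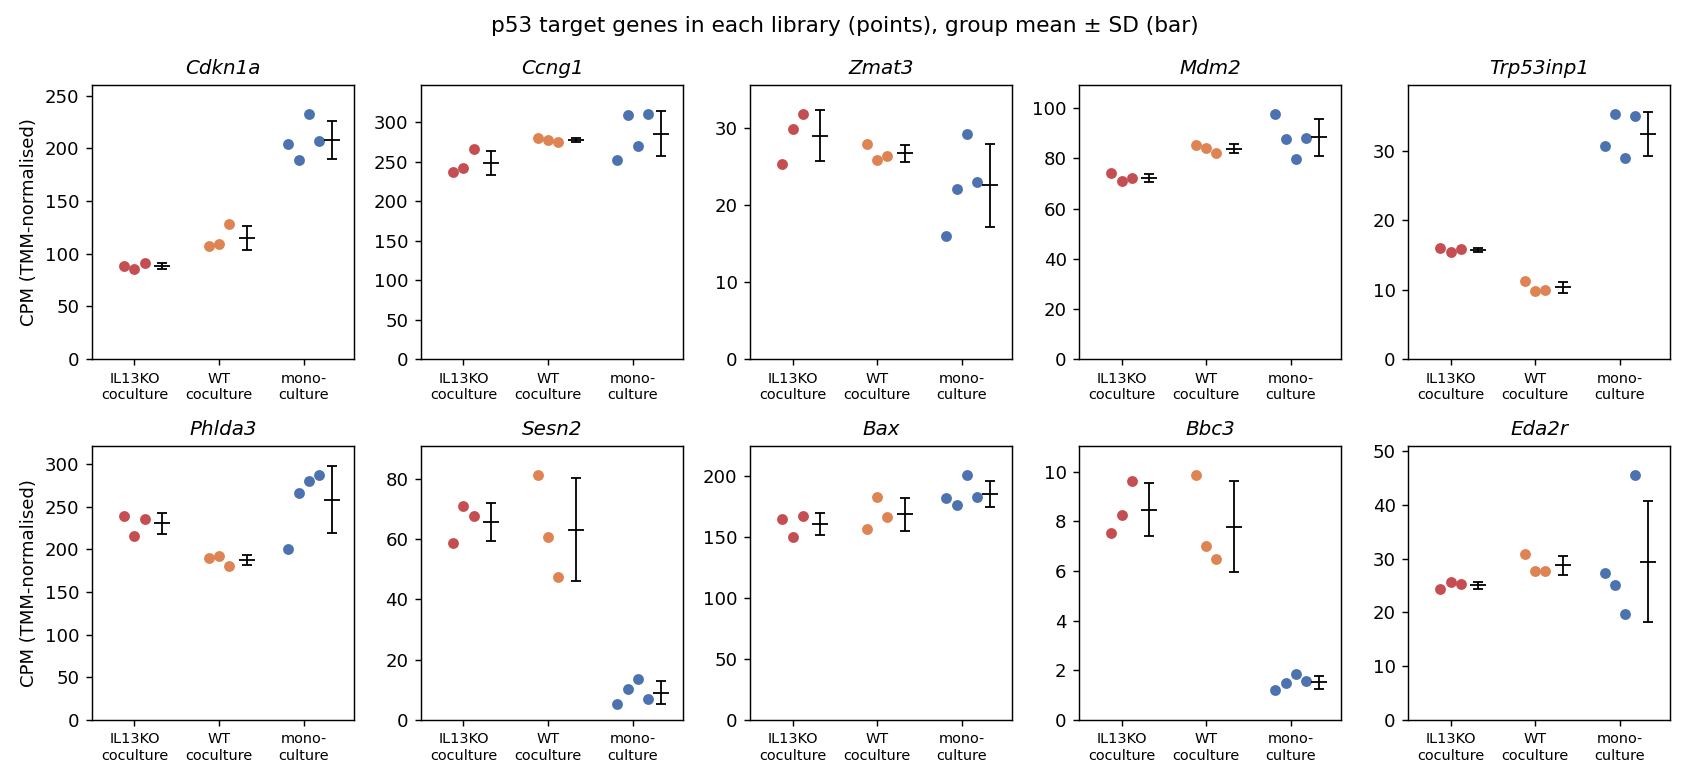
TMM-normalised CPM of the 10 p53 target genes in each library of the IL13KO cocultures (n = 3), WT cocultures (n = 3) and monocultures (n = 4), with group mean and SD beside the points; each panel has its own linear axis from 0. Cdkn1a and Trp53inp1 separate all 3 groups, while Sesn2 and Bbc3 separate the cocultures from the monocultures.

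The 4 members with the highest GC content of their longest transcript were Bbc3 (65.2%), Bax (63.5%), Phlda3 (62.6%) and Sesn2 (58.7%), and these were the members whose differences from monocultures moved most after GC adjustment. That setting shifted the median of all genes by -0.13 in WT cocultures and -0.16 in IL13KO cocultures against monocultures, and in the second of these comparisons 3234 genes were then called higher and 5264 lower, beside 4927 and 4457 without it. The other 6 members had 38.8% to 54.4% GC.

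Trp53 itself had 67.3, 58.0 and 65.9 CPM in IL13KO cocultures, 94.7, 83.2 and 111.2 CPM in WT cocultures and 42.7, 49.3, 68.4 and 56.8 CPM in monocultures. WT cocultures lay above every other library. Trp53 was lower in IL13KO than in WT cocultures, with a log2 difference of -0.60 ± 0.16 (edgeR adjusted p = 0.0172), and higher in WT cocultures than in monocultures by 0.83 ± 0.15 (adjusted p = 0.000355). The first call was lost without IL13KO coculture library 2 (0.0854) or WT coculture library 4 (0.0856), and the second after GC adjustment (0.19, adjusted p = 0.193). Its difference in IL13KO cocultures from monocultures was 0.23 ± 0.15 (0.205), was called at 0.36 without monoculture library 3 (adjusted p = 0.0361), and turned to -0.47 after GC adjustment (0.00583). Mdm4, an inhibitor of p53 related to Mdm2, had 35.95, 33.02 and 34.4 CPM in IL13KO cocultures, 39.5, 29.6 and 32.8 CPM in WT cocultures and 40.0, 43.5, 30.9 and 34.8 CPM in monocultures, and no difference passed.

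Across the 10 libraries the centred log2 CPM of Cdkn1a lay nearest to those of Rpl36a (root mean square difference 0.099), Gpx1 (0.102) and Uqcrh (0.103) among 8340 other genes. Mdm2 lay nearest to Anxa4 (0.041), Mlkl (0.044) and Ywhae (0.049). Among the members, the nearest to Sesn2 was Bbc3 (0.365), and the nearest to Cdkn1a was Trp53inp1 (0.441). Genes outside the 10 members lay nearer to both, at 0.154 for Sesn2 and 0.099 for Cdkn1a.

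Other genes of the p53 pathway were called in both directions. Over all genes tested, the share called was 23.3% in IL13KO against WT cocultures (11.7% higher, 11.6% lower). It was 62.5% in WT cocultures against monocultures (32.8% higher, 29.7% lower) and 57.4% in IL13KO cocultures against monocultures (30.1% higher, 27.3% lower). The counts of every list below are to be read beside these shares. Of 24 other targets of arrest and repair tested, 4 were higher and 7 lower in IL13KO than in WT cocultures, 6 were higher and 9 lower in WT cocultures than in monocultures, and 5 were higher and 6 lower in IL13KO cocultures than in monocultures. The list medians were -0.22, -0.02 and -0.07 log2 units in these 3 comparisons, beside the medians over all genes given above. Btg2, an anti-proliferative gene, averaged 82.9 ± 4.51 CPM in IL13KO cocultures, 46.2 ± 2.13 in WT cocultures and 118 ± 14.4 in monocultures (SD, n = 3, 3 and 4). Sesn1, the sestrin paralog of Sesn2, averaged 29.1 ± 2.09 CPM in IL13KO cocultures, 18.9 ± 0.738 in WT cocultures and 44.5 ± 4.42 in monocultures. Sesn1 was lower in WT cocultures than in monocultures, with a log2 difference of -1.24 ± 0.12 (edgeR adjusted p = 1.82e-06), in the other direction from Sesn2. Plk3, a stress-activated kinase, was higher in WT cocultures, at 28.5 ± 1.53 CPM against 4.61 ± 2.38 CPM in monocultures (edgeR adjusted p = 7.15e-06), while Gpx1, a glutathione peroxidase, was lower in IL13KO cocultures than in monocultures, with a log2 difference of -1.12 ± 0.09.

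Of 19 other targets of cell death tested, 3 were higher and 2 lower in IL13KO than in WT cocultures, 13 were higher and 5 lower in WT cocultures than in monocultures, and 10 were higher and 4 lower in IL13KO cocultures than in monocultures; after GC adjustment, the higher counts against monocultures were 8 and 8. The median log2 difference was 0.05 between the cocultures, 0.85 for WT cocultures and 0.50 for IL13KO cocultures against monocultures. In the same order, 23.3%, 62.5% and 57.4% of all genes tested were called. Pmaip1, which encodes the BH3-only protein NOXA, averaged 15.7 ± 0.494 CPM in IL13KO cocultures, 4.93 ± 0.645 in WT cocultures and 39.7 ± 10.2 in monocultures. It was lower in WT cocultures than in monocultures, with a log2 difference of -3.01 ± 0.21 (edgeR adjusted p = 1.77e-07), in the other direction from Bbc3, and higher by 1.68 ± 0.22 in IL13KO than in WT cocultures (0.000153). Fas, the death receptor, was lower in IL13KO than in WT cocultures, at 27.6 ± 2.25 CPM against 56.4 ± 7.93 CPM (edgeR adjusted p = 0.000553). Pml, which encodes the scaffold of PML nuclear bodies, was higher than in monocultures by 2.19 ± 0.23 in WT cocultures and 1.97 ± 0.23 in IL13KO cocultures, and by 1.20 and 0.84 after GC adjustment.

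Of 23 regulators of p53 tested, Trp53 included, 1 was higher and 3 lower in IL13KO than in WT cocultures, 9 higher and 4 lower in WT cocultures than in monocultures, and 7 higher and 5 lower in IL13KO cocultures than in monocultures, where GC adjustment gave 5 higher and 10 lower. The list medians were 0.003, 0.12 and 0.07 in these comparisons, the last -0.30 after GC adjustment. Hipk2, a kinase that phosphorylates p53, averaged 40.3 ± 7.49 CPM in IL13KO cocultures, 34.1 ± 5.31 in WT cocultures and 4.83 ± 2.18 in monocultures, with log2 differences from monocultures of 3.05 ± 0.29 in IL13KO and 2.81 ± 0.29 in WT cocultures, or 2.11 and 2.03 after GC adjustment. Of 13 BCL-2 family genes, a list that shares Bid and Pmaip1 with the cell death list, 4 were higher and 2 lower in IL13KO than in WT cocultures, 4 higher and 8 lower in WT cocultures than in monocultures, and 4 higher and 5 lower in IL13KO cocultures than in monocultures, with medians of 0.16, -0.55 and -0.11. Bak1, the pore-forming relative of Bax, averaged 84.6 ± 10.2 CPM in IL13KO cocultures, 87.7 ± 19.7 in WT cocultures and 13.6 ± 5.82 in monocultures. Bcl2, the anti-apoptotic founder of the family, averaged 5.05 ± 0.704 CPM in IL13KO cocultures, 1.75 ± 0.824 in WT cocultures and 9.54 ± 0.985 in monocultures. Bak1 was higher in both cocultures than in monocultures (edgeR adjusted p = 4.77e-06 for WT and 1.04e-05 for IL13KO) and Bcl2 lower (8.96e-06 and 0.00796).

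The genes that p21 is known to hold down through the DREAM complex were called in a single direction in each comparison. Of 24 genes of DNA replication and mitosis tested, 24 were lower in IL13KO than in WT cocultures, 24 were higher in WT cocultures than in monocultures, and 20 were higher in IL13KO cocultures than in monocultures with 4 not called, or 19 higher and 2 lower after GC adjustment. The median log2 difference was -1.46 between the cocultures, 2.65 for WT cocultures and 0.94 for IL13KO cocultures against monocultures. Birc5, which encodes survivin, averaged 23.6 ± 5.1 CPM in IL13KO cocultures, 80.9 ± 11.3 in WT cocultures and 13.9 ± 0.837 in monocultures. Cdkn1a was lower in IL13KO than in WT cocultures, and these 24 genes were lower there too, while against monocultures Cdkn1a was lower and most of the 24 higher. The summed leukocyte and ILC2 markers, carried by Cd53 and Il1rl1 as given above, were also highest in WT cocultures, and their part in these differences was not tested.

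Of 18 CDK inhibitors, G1 cyclins and their partners, 3 were higher and 6 lower in IL13KO than in WT cocultures, 10 were higher and 4 lower in WT cocultures than in monocultures, and 8 were higher and 5 lower in IL13KO cocultures than in monocultures, with medians of -0.15, 0.61 and 0.25. After GC adjustment the last count was 5 higher and 7 lower, and the median there turned to -0.33. Cdkn2b, which encodes the CDK4 and CDK6 inhibitor p15, had the order of Trp53inp1: it averaged 31.6 ± 1.34 CPM in IL13KO cocultures, 12.9 ± 0.076 in WT cocultures and 65.5 ± 11.6 in monocultures. Cdk6 averaged 42.6 ± 2.46 CPM in IL13KO cocultures, 116 ± 5.97 in WT cocultures and 20.8 ± 1.79 in monocultures. Its log2 difference was -1.45 ± 0.11 between the cocultures, and the edgeR adjusted p was 1.68e-06.

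Of 14 genes induced by amino acid stress through ATF4, a list that holds Sesn2, 1 was higher and 5 lower in IL13KO than in WT cocultures, 10 were higher and 1 lower in WT cocultures than in monocultures, and 9 were higher and 1 lower in IL13KO cocultures than in monocultures, or 6 and 2 after GC adjustment. The medians were -0.44, 1.19 and 0.59, the last 0.14 after GC adjustment. Psat1, an enzyme of serine synthesis, averaged 187 ± 24.5 CPM in IL13KO cocultures, 485 ± 29.9 in WT cocultures and 133 ± 9.39 in monocultures. Aldh1l2, a mitochondrial folate enzyme, averaged 69.4 ± 4.54 CPM in IL13KO cocultures, 141 ± 4.26 in WT cocultures and 24.9 ± 2.66 in monocultures. Both were lower in IL13KO than in WT cocultures (edgeR adjusted p = 3.12e-06 for Psat1 and 2.66e-05 for Aldh1l2). In that comparison Sesn2 had the interval of -0.50 to 0.62 given above. Cebpb, of the same list, ran the other way there, with a log2 difference of 1.35 ± 0.27 (edgeR adjusted p = 0.00327). It averaged 58.6 ± 22.8 CPM in IL13KO cocultures, 23.0 ± 5.18 in WT cocultures and 8.53 ± 1.6 in monocultures.

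**Figure D4:**
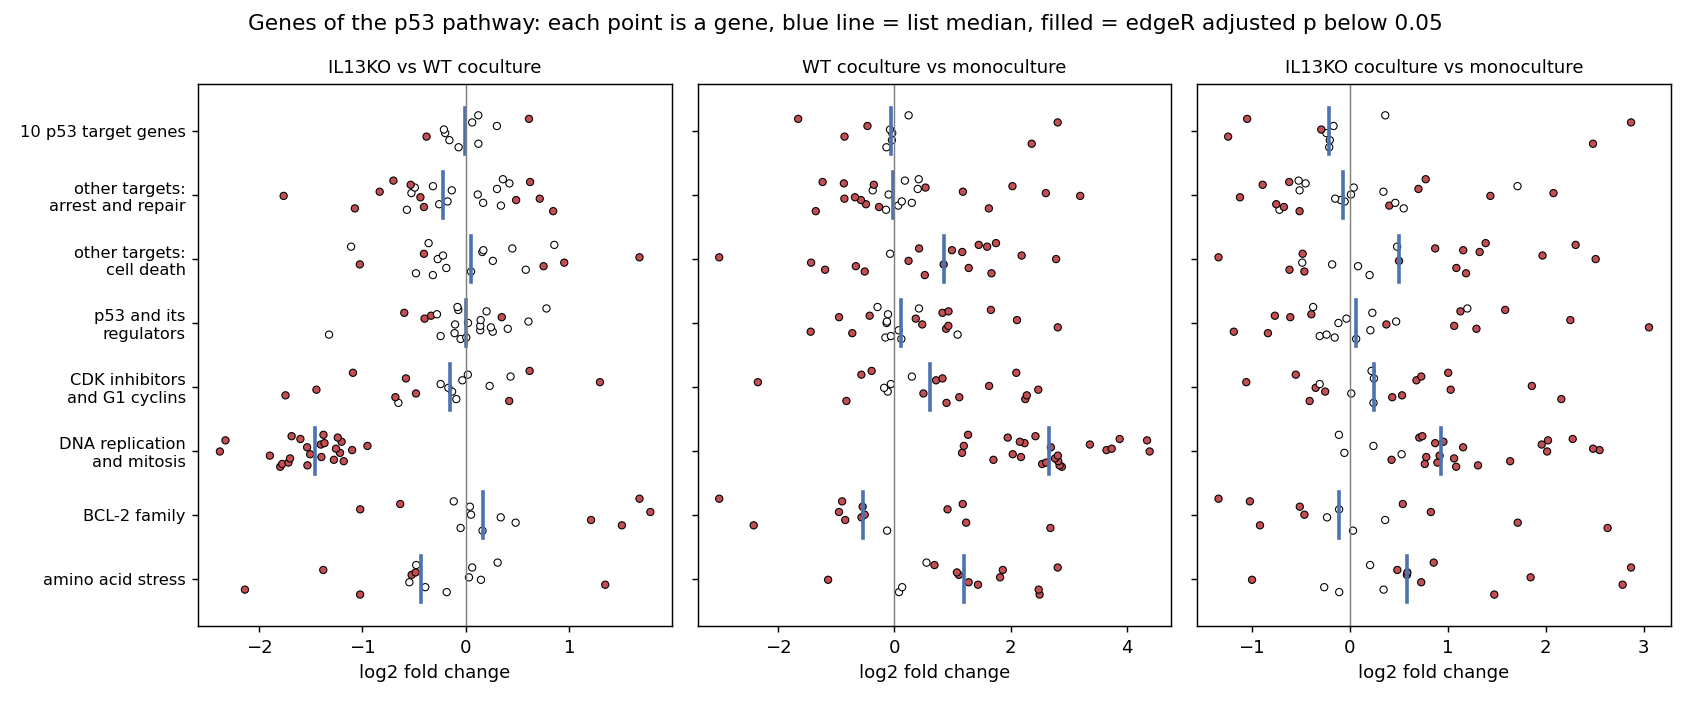
Log2 fold change of every tested gene of the 10 p53 target genes and of 7 lists of the pathway, in IL13KO against WT cocultures, WT cocultures against monocultures and IL13KO cocultures against monocultures; blue lines are list medians, filled points have an edgeR adjusted p below 0.05, and each panel has its own axis range. The replication and mitosis genes lie below 0 in the first panel and above 0 in the second, while the 10 p53 target genes straddle 0 in all 3 panels.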

How the data were processed

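Bulk RNA was sequenced from low-input libraries (paired-end, 50 nt) per the labels' protocols. Per the submitters' processing notes, the tools were STAR 2.7.7a, Salmon 1.6.0, DESeq2, Picard, Trimmomatic 0.39 and FastQC 0.11.9, with build GRCm38.p6; the counting tool, annotation and strand setting were not given in the sources used here. The deposited table holds raw counts per gene as the authors made them, and these counts were used; a normalised copy was not used. WT coculture columns are numbered 1, 3 and 4 and were matched to the group, not to single labels. Symbols and positions came from GENCODE M21, with 22647 of 22731 IDs matched.

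Counts were filtered (filterByExpr, 16344 genes), scaled by TMM and fitted with edgeR 4.0.16 (R 4.3.3) quasi-likelihood tests, 1 coefficient per group over all 10 libraries, with Benjamini-Hochberg adjustment and calls below 0.05. CPM are TMM-normalised; intervals are 95%. Depth limits low genes such as Bbc3. Alternatives were DESeq2 1.42.0, limma 3.58.1 voom, other scalings and filters, only 2 groups, a replicate block, adjustment for GC content and transcript length, and each library left out. The 10 genes and the lists were chosen with earlier results of these data known. Named genes are all 10 members, Trp53, Mdm4, Il13, Ptprc, up to 3 called genes with the smallest adjusted p per list and comparison, and for Cdkn1a and Mdm2 the 3 nearest genes of at least 10 CPM. Btg2, Sesn1, Plk3 and the other list genes named were described in each group once they met that rule in 1 comparison. Macrophage, endothelial, epithelial and mesothelial marker lists summed to 35.2 to 37.1, 0.284 to 0.454, 13.3 to 16.0 and 104 to 204 CPM in IL13KO cocultures, 14.7 to 17.5, 0.108 to 0.769, 7.00 to 9.89 and 130 to 144 CPM in WT cocultures, and 58.4 to 65.3, 0 to 0.369, 16.8 to 24.0 and 26.2 to 92.1 CPM in monocultures. In the macrophage sum, Lyz2 averaged 23.8, 2.85 and 53.4 CPM in the same order of groups. Csf1r did not follow it, at 12.2, 12.9 and 9.0 CPM. By group means, Cela1 carried most of the epithelial sum and Wt1 most of the mesothelial sum. Upk3b, also a mesothelial marker, ran from 2.3 to 73.4 CPM within IL13KO cocultures.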

Additional observations from a re-analysis of the deposited data

Results flagged for a closer look

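The 2 cocultures share fibroblast genotype and differ in the ILC2s. Of the genes examined, the 10 members, Trp53 and Mdm4, 3 differed between the cocultures by a test of that difference. Cdkn1a was lower in IL13KO than in WT cocultures (log2 difference -0.381), as was Trp53 (-0.596), and Trp53inp1 was higher (0.609; edgeR quasi-likelihood test, adjusted p = 0.0189, 0.0172 and 0.00619). Trp53inp1 kept its call in all 19 alternatives, while Cdkn1a kept its call in 15 of 19 and Trp53 in 17 of 19, with adjusted p up to 0.142 and 0.0856. In all 3 genes the 2 groups of libraries did not overlap, as in 49.0% of all genes tested, and 23.3% of all genes were called in this comparison. Among the 4 monoculture libraries, Dixon's test set no single library apart for any of the 10 members, Trp53 or Mdm4.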

How the results depend on the processing

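Across 19 alternatives, the calls of Trp53inp1 in all 3 comparisons, and those of Sesn2, Bbc3 and Cdkn1a against monocultures, held with their direction. In IL13KO against WT cocultures, 3810 genes were called, and 5806 with only the 2 groups fitted. Leaving out 1 library gave 2337 to 4814 genes and 1 to 3 members there, 9070 to 10459 genes and 5 to 6 members in WT cocultures against monocultures, and 7891 to 9727 genes and 4 to 7 members in IL13KO cocultures against monocultures. The low counts between the cocultures came without IL13KO coculture library 1 (2482), IL13KO coculture library 2 (2337) or WT coculture library 4 (2523), and the cause was not tested.

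Directions turned in these settings, and the cause was not tested. Between the cocultures Sesn2 was at -0.107 after adjustment for GC content and transcript length, and with 1 library left out it ran from -0.113 (without WT coculture library 4) to 0.284; Bbc3 was at -0.108 after that adjustment and ran from -0.001 to 0.327. In WT cocultures against monocultures Eda2r was at 0.015 in limma-voom and ran from -0.19 to 0.253 (without monoculture library 4), while Ccng1 was at 0.03 and Zmat3 at -0.119 after GC adjustment. In IL13KO cocultures against monocultures Eda2r ran from -0.39 to 0.053 (without monoculture library 4), and Zmat3 was at -0.1 and Trp53 at -0.471 after GC adjustment. That setting also lowered the share of higher calls to 42.6% for WT cocultures (4215 of 9896) and 38.1% for IL13KO cocultures (3234 of 8498) against monocultures.

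Same-numbered libraries of different groups had correlations of their deviations of -0.126 to 0.028, beside -0.153 to 0.14 for libraries of different number. WT coculture columns were matched only to the group, so for pairs with a WT coculture library these correlations cannot decide whether libraries were paired. The replicate block was fitted only to libraries whose number occurs in both groups, which left numbers 1 and 3 between the cocultures. Against monocultures, numbers 1, 3 and 4 were left for WT cocultures and 1, 2 and 3 for IL13KO cocultures. Effects of the block and of fewer libraries cannot be told apart here. In that setting 3141 genes and 1 member were called between the cocultures. Against monocultures, 7935 genes were called in WT cocultures and 7291 in IL13KO cocultures. Cdkn1a between the cocultures had an edgeR adjusted p of 0.142, and Mdm2 in IL13KO cocultures against monocultures had 0.0804. The difference of Sesn2 between the cocultures was -0.15, and that of Eda2r in IL13KO cocultures against monocultures was 0.078.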
